A study of Mus musculus with 9 samples.

Results

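The genes described here are 10 components of the oxidative and metal stress response: the transcription factor gene Nfe2l2, 6 of the genes its product is known to activate (Hmox1, Nqo1, Gclc, Gclm, Txnrd1 and Srxn1), the mitochondrial superoxide dismutase gene Sod2, and the metallothionein genes Mt1 and Mt2. They were taken by symbol from the count table, and all 10 of these symbols were found among its 54532 gene identifiers. RNA was sequenced from heart tissue of 9 wild-type mice of the C57BL/6J strain (males, 8 to 10 weeks old), 3 per group, and each library was 1 mouse. The sham mice had the operation without ligation, and saline by tail vein. In the MIRI (myocardial ischemia/reperfusion injury) mice the left anterior descending coronary artery was tied for 30 min and the heart was reperfused for 24 h, with saline by the same route. The GXNI mice had the same ischemia and reperfusion and received Guanxinning Injection, an extract of Danshen and Chuanxiong, at 9 mL/kg in place of saline. The comparison of MIRI with sham asks what the injury changed, and that of GXNI with MIRI asks what the injection changed. All 6 injured hearts (MIRI and GXNI) were also compared with sham, a contrast that uses the same libraries as the others and is not independent of them.

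NRF2, the protein encoded by Nfe2l2, is held at a low level by KEAP1, which presents it for degradation, and escapes when oxidants or electrophiles modify KEAP1. It then pairs with small MAF proteins on antioxidant response elements of genes for glutathione synthesis, thioredoxin recycling, quinone reduction and heme breakdown. BACH1 occupies the same elements as a repressor, for example at Hmox1, and leaves them when heme binds it. Metallothioneins are small cysteine-rich proteins that bind zinc and copper, and their genes are switched on by MTF1 through metal response elements and also by glucocorticoids and oxidants. In the heart these systems are known for limiting oxidant damage when blood flow returns.

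Of the 10 genes, 8 had a promoter window in the RefSeq table (build GRCm38.p6), which holds 250 bases before to 50 bases after each gene's start. The windows of Nfe2l2, Txnrd1 and Srxn1, the genes that rose in the injured hearts, and of Mt1 and Mt2, neighbouring genes of very unequal read count, are shown here 5′ to 3′ on the strand of the gene. Capitals mark matches on either strand to the antioxidant response element core TGACNNNGC, to the metal response element core (TGCACNC or TGCGCNC), or to TGANTCAGC, which overlaps the first where its N is C.

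Nfe2l2, chr2:75704614-75704913, minus strand: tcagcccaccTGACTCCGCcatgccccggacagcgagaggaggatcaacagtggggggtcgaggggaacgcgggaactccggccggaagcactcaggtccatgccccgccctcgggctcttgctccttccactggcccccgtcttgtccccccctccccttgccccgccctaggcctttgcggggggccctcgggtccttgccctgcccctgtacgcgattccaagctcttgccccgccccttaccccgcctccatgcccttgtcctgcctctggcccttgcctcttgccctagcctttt

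Txnrd1, chr10:82858956-82859255, plus strand: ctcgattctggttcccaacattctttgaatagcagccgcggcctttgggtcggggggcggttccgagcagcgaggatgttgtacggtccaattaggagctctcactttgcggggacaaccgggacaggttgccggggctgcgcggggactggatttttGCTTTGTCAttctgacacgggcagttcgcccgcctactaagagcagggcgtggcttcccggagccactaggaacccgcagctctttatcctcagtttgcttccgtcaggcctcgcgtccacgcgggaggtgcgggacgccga

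Srxn1, chr2:152105274-152105573, plus strand: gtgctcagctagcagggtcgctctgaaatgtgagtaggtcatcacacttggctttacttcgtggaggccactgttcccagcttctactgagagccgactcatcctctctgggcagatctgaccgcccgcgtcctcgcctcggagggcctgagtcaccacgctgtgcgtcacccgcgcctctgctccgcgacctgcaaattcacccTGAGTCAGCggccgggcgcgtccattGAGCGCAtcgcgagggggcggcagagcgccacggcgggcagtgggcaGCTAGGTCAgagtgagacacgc

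Mt1, chr8:94178839-94179138, plus strand: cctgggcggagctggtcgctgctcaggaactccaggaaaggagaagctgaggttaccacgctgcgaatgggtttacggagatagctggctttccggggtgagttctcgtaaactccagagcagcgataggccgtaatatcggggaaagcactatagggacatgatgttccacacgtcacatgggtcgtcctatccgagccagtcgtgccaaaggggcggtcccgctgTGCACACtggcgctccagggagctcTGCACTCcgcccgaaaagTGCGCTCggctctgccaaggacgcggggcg

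Mt2, chr8:94172368-94172667, plus strand: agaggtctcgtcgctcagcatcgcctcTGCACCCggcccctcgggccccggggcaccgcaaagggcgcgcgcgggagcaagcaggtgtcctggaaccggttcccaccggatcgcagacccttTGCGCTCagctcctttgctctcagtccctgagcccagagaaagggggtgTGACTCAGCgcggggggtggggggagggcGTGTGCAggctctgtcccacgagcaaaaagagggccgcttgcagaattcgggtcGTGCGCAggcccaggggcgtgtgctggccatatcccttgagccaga

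The antioxidant response element core was found in the windows of Nfe2l2, Gclm, Srxn1 and Mt2 and in 1 of the 3 windows of Txnrd1, against 12.4% of all 32851 promoter windows. Srxn1 carried in addition TGAGTCAGC from base 206 of its window, and Mt2 carried TGACTCAGC from base 172, a form that 1.19% of all windows hold. Mt1 had 3 metal response element cores, Mt2 had 4, Gclm 3 and Srxn1 1, where 25.7% of all windows had any and 0.517% had 4 or more. The windows of Nqo1 and Sod2 held none of these letters. A match describes the sequence and does not show that a factor binds there.

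The libraries held 17119454 to 22811295 counts, so that 3 counts were worth 0.132 to 0.175 CPM (counts scaled to a common library size), and mitochondrial genes took 23.0% to 29.8%. Values below are CPM scaled with TMM factors. The labels name cardiomyocytes as the cell type, but markers of endothelial cells, fibroblasts and macrophages were counted in every library, so these are values of whole heart tissue, in which fewer cells of a type and less RNA per cell cannot be told apart. The sham libraries lay together, but injured libraries of the same label did not. On the first principal component of all tested genes, which held 66.7% of the variance, the sham libraries lay at -54.3, -55.5 and -48.8, the MIRI libraries at 57.3, -40.6 and 77.6, and the GXNI libraries at -40.4, 16.6 and 88.0. By rank correlation the library nearest to MIRI 2 was GXNI 1 (rho = 0.982 across genes), that nearest to GXNI 3 was MIRI 3 (0.987), and that nearest to GXNI 1 was sham 1 (0.984). An earlier analysis of these data raised the possibility that the labels of MIRI 2 and GXNI 3 are exchanged. This was not tested here, and every value given for MIRI or GXNI rests on the labels as deposited. The contrast of all injured hearts with sham does not depend on which injured heart carries which label, and the other comparisons are also given without MIRI 2 and GXNI 3.

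In the 6 injured hearts Nfe2l2, Txnrd1 and Srxn1 rose against sham, by 0.77, 1.44 and 1.85 on the log2 scale, and none of the 10 genes fell. Here a call means that edgeR's quasi-likelihood F test gave an unadjusted p no higher than 0.01 with a change of 1.5-fold or more, the thresholds of the study, which 8.38% of the 15207 genes tested passed (5.52% higher and 2.85% lower). All 10 genes passed the filter on low counts. In the filtered edgeR fits with all libraries in, none of the 10 passed a Benjamini-Hochberg adjusted p of 0.05 over all genes. That threshold was met by 0.0592% of genes in the injured hearts (0.0263% higher and 0.0329% lower), 0.0137% in MIRI against sham, all of them higher, and 0% in the other comparisons. Without the filter, 4 of the 10 passed it in MIRI against sham (4.03% of all genes did) and 1 in the injured hearts (0.341%). In DESeq2, an alternative tool, 4, 4 and 5 passed it in MIRI, GXNI and all injured hearts against sham (7.26%, 2.98% and 7.4% of all genes did). In MIRI against sham the called genes were Nfe2l2, Txnrd1 and Srxn1, where 8.97% of genes passed (6.15% higher and 2.82% lower), and in GXNI against sham they were Nfe2l2 and Mt2, where 4.21% passed (2.67% higher and 1.54% lower). Across the 10 genes the median log2 fold change in the injured hearts was 0.67, against 0.01 for all genes tested, with 8 of 10 above 0.

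**Figure D1:**
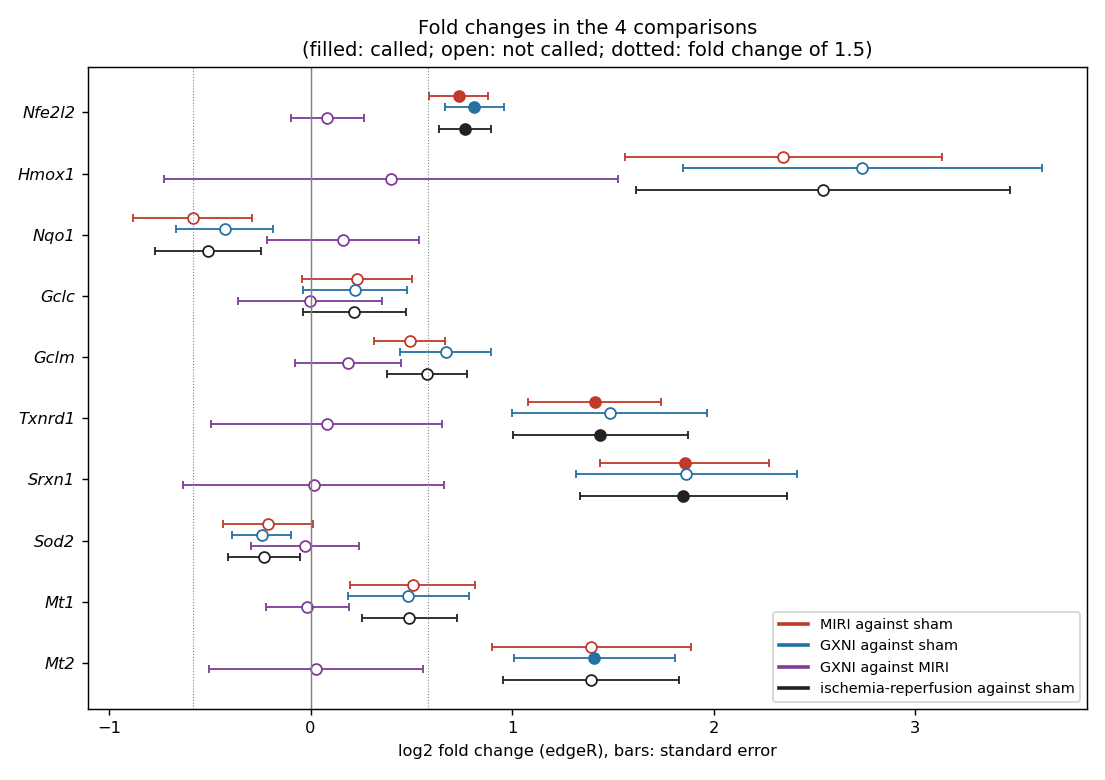
The log2 fold change of each of the 10 genes is plotted on the horizontal axis for the 4 comparisons, with bars for the standard error of the edgeR fit and filled points for called genes. In GXNI against MIRI the largest value is 0.40, for Hmox1, which also has the highest values against sham and the widest bars.

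Nfe2l2 (ENSMUSG00000015839, chr2:75675513-75704641 in GRCm38), the regulator itself, had the smallest fold of the 3 genes that rose and, in the injured hearts against sham, the smallest standard error of all 10. It measured 59.9, 53.1 and 53.9 CPM in sham 1 to 3, 93.6, 79.3 and 103.8 CPM in MIRI 1 to 3, and 87.2, 90.9 and 113.2 CPM in GXNI 1 to 3. All 6 injured hearts lay above all 3 sham hearts, which was true of no other of the 10 genes and of 8.40% of all genes tested, and the mean was 94.7 ± 12.1 CPM (SD, n = 6) against 55.6 ± 3.73 CPM (SD, n = 3). The log2 fold change was 0.77 (SE 0.13, edgeR adjusted p = 0.0546). It was 0.73 in MIRI against sham (SE 0.15, edgeR adjusted p = 0.0701) and 0.81 in GXNI against sham (SE 0.15, edgeR adjusted p = 0.219). The rise included MIRI 2 and GXNI 1, the injured libraries nearest to sham on the first component, at 79.3 and 87.2 CPM.

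**Figure D2:**
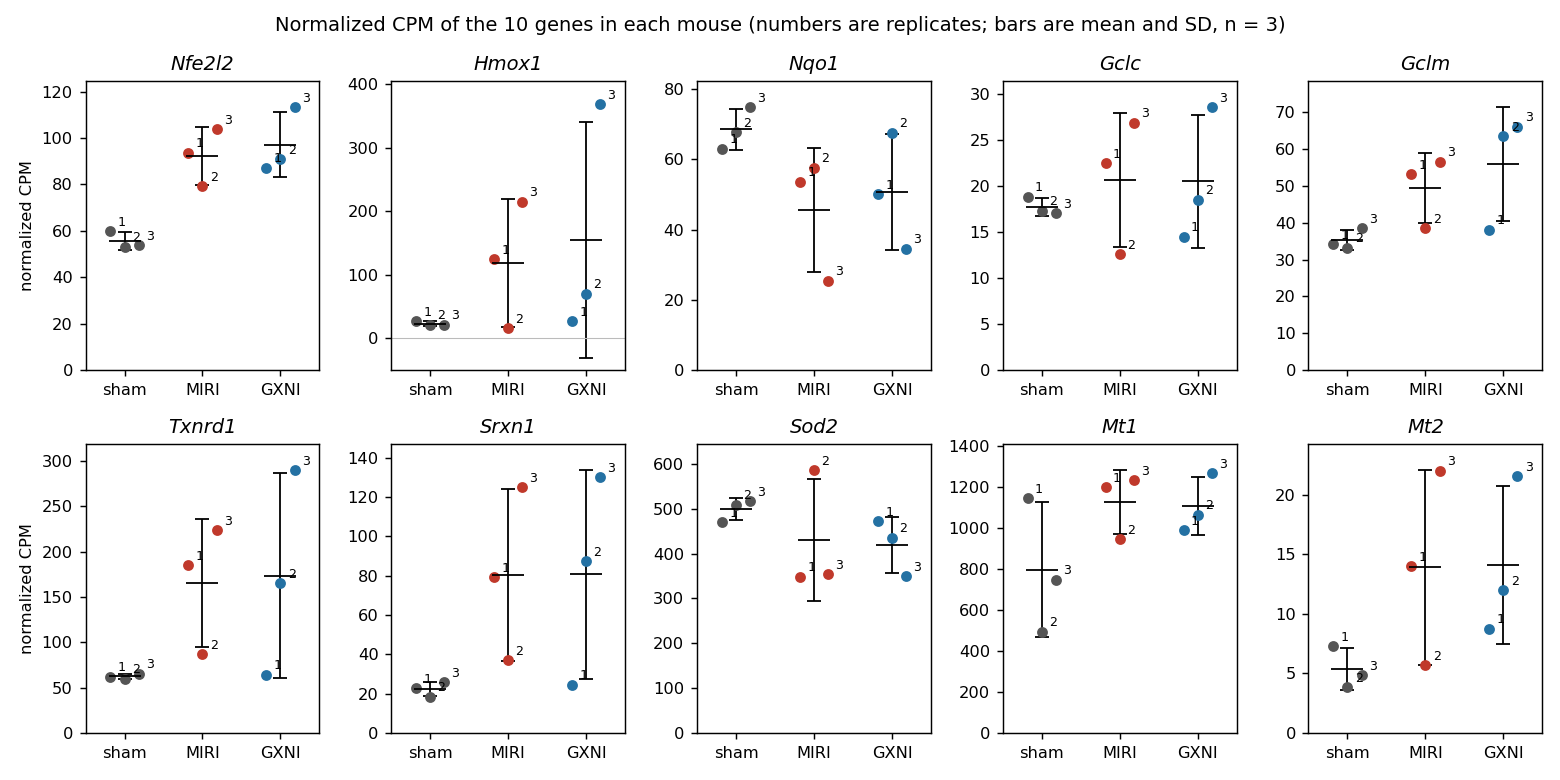
Normalized CPM of each gene is plotted on the vertical axis for the sham, MIRI and GXNI libraries, numbered by replicate, with the mean and SD of 3 mice. Nfe2l2 separates sham from all injured hearts, whereas for Hmox1, Txnrd1 and Srxn1 the points of MIRI 2 and GXNI 1 stay low beside the rest of their groups.

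Hmox1 (ENSMUSG00000005413, chr8:75093621-75100589) encodes heme oxygenase 1, which opens heme to biliverdin, iron and carbon monoxide. It measured 27.3, 21.8 and 21.4 CPM in the sham hearts, 124.8, 16.0 and 215.5 CPM in MIRI 1 to 3, and 27.6, 70.6 and 368.1 CPM in GXNI 1 to 3. The highest and the lowest of all 9 values, GXNI 3 and MIRI 2, were both injured hearts, and 5 of 6 injured hearts lay above all sham hearts while 1 lay below them. The mean of the injured hearts was 5.83-fold that of sham, but the log2 fold change of 2.54 carried an SE of 0.93 and was not called (edgeR adjusted p = 0.118). It was called without MIRI 2 and GXNI 3, at 2.23 (SE 0.61, edgeR adjusted p = 0.0819). DESeq2, run as an alternative, called it in the full set at 2.55 (adjusted p = 0.0396).

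Of 10 neutrophil markers, 9 had their lowest values among the injured hearts in MIRI 2 and GXNI 1, the libraries lowest for Hmox1, and Lcn2 did not. The highest injured heart was GXNI 3 for 5 of the markers, as for Hmox1, MIRI 1 for 3, MIRI 3 for 1 and GXNI 1 for 1. Csf3r, the receptor for granulocyte colony stimulating factor, is shown as an example chosen after its values were seen. It measured 13.4, 6.04 and 12.5 CPM in sham, 66.9, 3.8 and 89.5 CPM in MIRI 1 to 3, and 8.49, 48.7 and 107.6 CPM in GXNI 1 to 3. All 10 of the neutrophil markers were counted in every library, and their summed level was 155 to 208 CPM in sham, 235 to 1169 CPM in MIRI and 630 to 895 CPM in GXNI, with Lcn2 alone giving 578 CPM of the 630 in GXNI 1. Summed cardiomyocyte markers (10 of 10 counted in every library) stood at 57030 to 59424 CPM in sham, 37316 to 59577 CPM in MIRI and 37318 to 50042 CPM in GXNI, with MIRI 2 the highest. The markers were split in MIRI 2: Actc1, Tnnt2 and Ryr2 lay above all sham hearts, Myh6, Atp2a2 and Myl2 below them, and the rest among them. Summed macrophage markers (11 of 11 counted) spanned 667 to 768 CPM in sham, 487 to 791 CPM in MIRI and 516 to 845 CPM in GXNI. Summed erythroid markers (5 of 5 counted) spanned 136 to 314 CPM in sham and 162 to 397 CPM in the injured hearts. Endothelial markers (6 of 6 counted) spanned 597 to 855 CPM in sham and 647 to 1046 CPM in the injured hearts, and fibroblast markers (6 of 6) 843 to 925 CPM and 472 to 1114 CPM. Mesothelial markers summed to 7.61 to 64.1 CPM over all libraries, and atrial markers to 40.3 to 84 CPM in sham and 55.9 to 729 CPM in the injured hearts. Nppa, which also marks stressed ventricle, alone gave 727 CPM of the 729 in GXNI 3, where the atrial markers Myl7 and Sln had no count. The part of these cells in the values of the 10 genes was not tested.

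Txnrd1 (ENSMUSG00000020250, chr10:82833951-82897712) encodes cytosolic thioredoxin reductase, which passes electrons from NADPH to thioredoxin. Its window with the antioxidant element is the one printed above. It measured 62.2, 59.6 and 65.5 CPM in sham, 185.0, 86.7 and 223.4 CPM in MIRI 1 to 3, and 64.3, 165.4 and 290.0 CPM in GXNI 1 to 3. All 3 MIRI hearts lay above sham, as was true of 17.4% of all genes tested, GXNI 1 lay among the sham hearts, and the other GXNI hearts lay far above them. It rose by 1.44 in the injured hearts (SE 0.44, edgeR adjusted p = 0.0940) and by 1.41 in MIRI (SE 0.33, edgeR adjusted p = 0.0821). In GXNI the log2 fold change was 1.48 (SE 0.49, edgeR adjusted p = 0.223), which was not called.

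Srxn1 (ENSMUSG00000032802, chr2:152105516-152111376) encodes sulfiredoxin, which restores peroxiredoxins that have been overoxidized. It measured 22.8, 18.4 and 25.8 CPM in sham, 79.1, 37.1 and 125.0 CPM in MIRI 1 to 3, and 24.6, 87.5 and 130.1 CPM in GXNI 1 to 3. The order of the injured hearts was that of Txnrd1 except that GXNI 2 stood above MIRI 1. Srxn1 rose by 1.85 on the log2 scale in all injured hearts (SE 0.51, edgeR adjusted p = 0.0875) and by 1.86 in MIRI (SE 0.42, edgeR adjusted p = 0.0785). In GXNI it stood at 1.86 (SE 0.55, edgeR adjusted p = 0.219), the same fold with a larger error, and missed the threshold on p.

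Glutamate-cysteine ligase, the rate-limiting enzyme of glutathione synthesis, is made of the catalytic subunit Gclc (ENSMUSG00000032350, chr9:77754535-77794485) and the modifier subunit Gclm (ENSMUSG00000028124, chr3:122245557-122270732). Gclm measured 34.2, 33.2 and 38.5 CPM in sham, 53.0, 38.5 and 56.6 CPM in MIRI 1 to 3, and 38.1, 63.4 and 66.0 CPM in GXNI 1 to 3. MIRI 2 and GXNI 1 stood at the upper edge of the sham range and the 4 other injured hearts above it. Its log2 fold change was 0.58 (SE 0.20, edgeR adjusted p = 0.110), just short of both thresholds. Gclc measured 18.8, 17.3 and 17.0 CPM in sham, 22.5, 12.6 and 26.8 CPM in MIRI 1 to 3, and 14.5, 18.5 and 28.5 CPM in GXNI 1 to 3. The injured hearts lay on both sides of sham, 3 above and 2 below all sham hearts, and the log2 fold change was 0.22 (SE 0.26, edgeR adjusted p = 0.570).

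The ratio of the subunits within a library does not depend on scaling. Gclm had 1.82, 1.92 and 2.26 counts for each Gclc count in sham, 2.36, 3.06 and 2.11 in MIRI 1 to 3, and 2.63, 3.43 and 2.32 in GXNI 1 to 3. 5 of the injured hearts lay above the sham range and MIRI 3 within it. The log2 ratio of Gclc to Gclm averaged -1.39 ± 0.27 (SD, n = 6) against -0.99 ± 0.16 (SD, n = 3) in sham, a difference of -0.39 (two-sided exact permutation test, p = 0.0476, where 0.0238 is the smallest possible). Adjusted over the 4 ratio tests made this was p = 0.190 by the same exact test, so the difference did not pass.

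**Figure D3:**
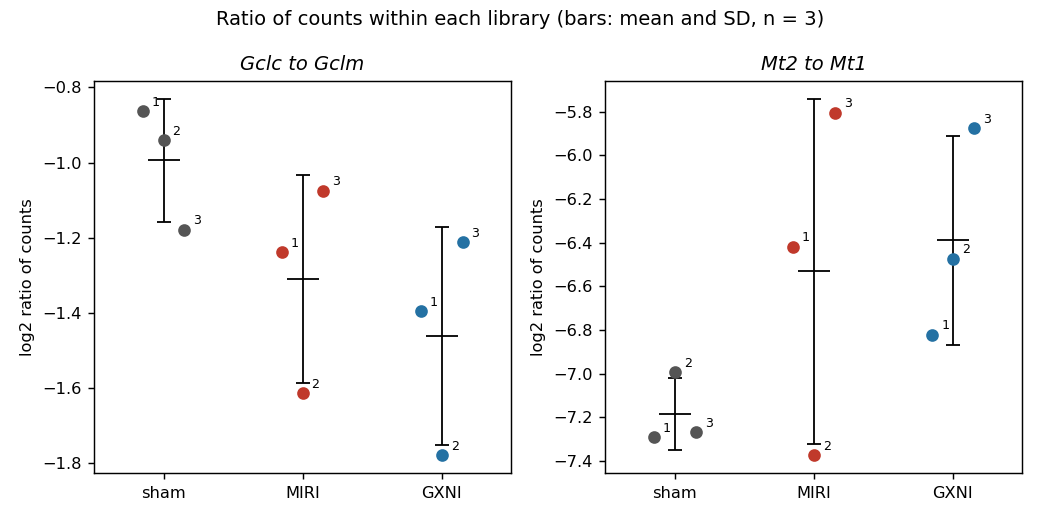
The log2 ratio of counts within each library is plotted for Gclc to Gclm (left) and Mt2 to Mt1 (right), with replicate numbers and the mean and SD of 3 mice per group. The injured hearts lie below the sham points on the left and above them on the right, except MIRI 3, which lies within the sham points on the left, and MIRI 2, which lies below them on the right.

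Nqo1 (ENSMUSG00000003849, chr8:107388225-107403206) encodes a quinone reductase and is often used as a readout of NRF2. It measured 63.0, 67.8 and 74.9 CPM in sham, 53.7, 57.7 and 25.5 CPM in MIRI 1 to 3, and 50.1, 67.6 and 34.5 CPM in GXNI 1 to 3. No injured heart exceeded the sham range, 5 of 6 lay below it, and the lowest were MIRI 3 and GXNI 3, the libraries with the highest Hmox1. Its value of -0.51 on the log2 scale (SE 0.26, edgeR adjusted p = 0.217) was not called, nor were -0.59 in MIRI (SE 0.29) and -0.43 in GXNI (SE 0.24).

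Sod2 (ENSMUSG00000006818, chr17:13006846-13040063) encodes the manganese enzyme that removes superoxide in mitochondria. It measured 471, 509 and 516 CPM in sham, 348, 586 and 354 CPM in MIRI 1 to 3, and 473, 436 and 350 CPM in GXNI 1 to 3. MIRI 1, MIRI 3, GXNI 2 and GXNI 3 lay below the sham range and MIRI 2 above it. Its log2 fold change was -0.23 (SE 0.18, edgeR adjusted p = 0.384) and was not called. The summed cardiomyocyte markers were lowest in MIRI 1, GXNI 3 and MIRI 3, the same hearts that were lowest for Sod2, and their part in it was not tested.

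The metallothionein genes lie side by side on chromosome 8, Mt2 (ENSMUSG00000031762) at chr8:94172664-94173568 and Mt1 (ENSMUSG00000031765) at chr8:94179082-94180327. Mt1 was the most abundant of the 10 genes, with 1144, 492 and 747 CPM in sham, 1197, 944 and 1231 CPM in MIRI 1 to 3, and 988, 1063 and 1264 CPM in GXNI 1 to 3. Sham 1 overlapped the injured hearts, and sham 2 and sham 3 lay below all of them. Its log2 fold change of 0.49 (SE 0.24, edgeR adjusted p = 0.193) was not called. Without sham 1 Mt1 was called, at 0.85.

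Mt2 measured 7.30, 3.86 and 4.85 CPM in sham, 14.0, 5.70 and 22.0 CPM in MIRI 1 to 3, and 8.74, 12 and 21.5 CPM in GXNI 1 to 3. All GXNI hearts lay above sham, as was true of 13.8% of all genes tested, and of the MIRI hearts only MIRI 2 lay within the sham range. The log2 fold change in all injured hearts was 1.39 (SE 0.44, edgeR adjusted p = 0.10), with an unadjusted value of 0.01003 that lies just outside the threshold. In GXNI against sham it was called at 1.41 (SE 0.40, edgeR adjusted p = 0.219), just inside the threshold, and in MIRI against sham it was 1.39 (SE 0.49, edgeR adjusted p = 0.135). The call in GXNI was lost under RLE normalization, with the replicate number as a block, in a joint fit of all 9 libraries, and without sham 2, sham 3, GXNI 2 or GXNI 3, at values of 0.96 to 1.52.

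The level of Mt2 carries a limit of the counting. In the GENCODE M21 annotation 73.5% of its exon bases, 432 of 588, are shared with Gm45774, a gene on the opposite strand that itself had 2 to 22 counts per library, and the strand setting and the treatment of shared reads are not given in the sources used here. Mt1 shares no exon base with another gene and had 55.9 to 165.7 counts for each Mt2 count. The log2 ratio of Mt2 to Mt1 averaged -6.46 ± 0.59 (SD, n = 6) in the injured hearts and -7.18 ± 0.17 (SD, n = 3) in sham, a difference of 0.72 (two-sided exact permutation test, p = 0.0952, adjusted over 4 tests p = 0.190). Of the other genes, Gclm shares 4.71% of its exon bases with Gm17494 and 3.88% with Gm6061, and the remaining 7 share none.

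Levels per kilobase were taken over all annotated exons of a gene pooled. Pooled exons can be longer than the transcript, so the order between genes is rough, and Mt2 carries the counting limit above. Mt1 led in sham with 637 ± 264 CPM per kb (SD, n = 3), followed by Sod2 at 49.8 ± 2.46 and Nqo1 at 44.1 ± 3.83, which overlap within 1 SD. Nfe2l2 (14.7 ± 0.98 CPM per kb) and Hmox1 (13.4 ± 1.87) overlapped next, then Mt2 (9.08 ± 3.01), Txnrd1 (8.81 ± 0.42) and Srxn1 (7.92 ± 1.33), and Gclm (5.61 ± 0.45) and Gclc (4.70 ± 0.26) came last without overlap. In the injured hearts Hmox1 had the second highest mean after Mt1, at 78.3 ± 76.9 CPM per kb (SD, n = 6). Its SD nearly equalled its mean, and Sod2 at 42.4 ± 9.48 lay within that spread. Nqo1 at 31.0 ± 9.98, Srxn1 at 28.6 ± 15.5, Nfe2l2 at 24.9 ± 3.19, Txnrd1 at 23.9 ± 11.9 and Mt2 at 23.8 ± 11.3 CPM per kb did not differ beyond their spread, and Gclm (8.36 ± 1.91) and Gclc (5.46 ± 1.73) were again last.

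GXNI and MIRI did not separate for any of the 10 genes. None was called, where 0.0203% of the 14762 genes tested passed (0% higher and 0.0203% lower), and the groups overlapped for all 10, as they did for 97.3% of all genes tested. Over all genes the edgeR test called 3, DESeq2 called 11, and 47 genes had an unadjusted edgeR p under 0.05. The log2 fold changes were 0.08 for Nfe2l2 (SE 0.18), 0.40 for Hmox1 (SE 1.13), 0.08 for Txnrd1 (SE 0.57), 0.02 for Srxn1 (SE 0.65) and 0.03 for Mt2 (SE 0.53), each with an edgeR adjusted p of 1. With errors of this size the missing calls do not show that the groups were alike. Without MIRI 2 and GXNI 3, which leaves 2 libraries in each group, the values turned to -1.78 for Hmox1 (SE 0.49), -0.85 for Srxn1 (SE 0.57), -0.82 for Txnrd1 (SE 0.43), -0.79 for Mt2 (SE 0.29) and -0.14 for Nfe2l2 (SE 0.16). None of the 10 was called there either (Hmox1 edgeR adjusted p = 0.199). Of the 14984 genes tested there, 748 were called (1.52% higher and 3.47% lower).

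**Figure D4:**
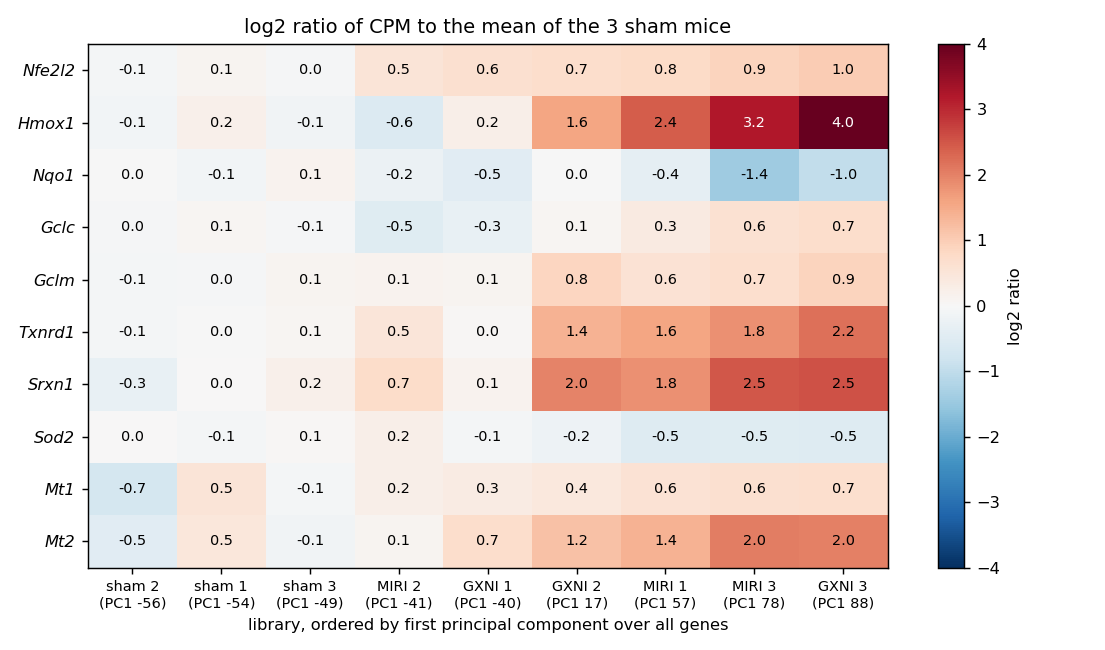
Each cell gives the log2 ratio of a gene's CPM to the mean of the 3 sham mice, with libraries ordered along the horizontal axis by the first principal component over all genes. Hmox1, Txnrd1, Srxn1 and Mt2 are higher in GXNI 2, MIRI 1, MIRI 3 and GXNI 3 than in GXNI 1 and MIRI 2, Nfe2l2 is raised in all 6 injured hearts, and Sod2 and Nqo1 are lowest to the right.

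Which genes were called against sham changed with single libraries. Without MIRI 2, 6 of the 10 genes rose in MIRI against sham (Nfe2l2, Hmox1, Gclm, Txnrd1, Srxn1 and Mt2), where 16.9% of all genes tested then rose, and without GXNI 1 the same 6 rose in GXNI against sham, where 10.7% of all genes did. The adjusted p moved with the same libraries. In MIRI against sham without MIRI 2, genes at an edgeR adjusted p of at most 0.05, at any fold, went from 2 to 6554. That was 43.1% of those tested. In GXNI against sham without GXNI 1 such genes went from 0 to 2749 (18.3%). In the injured hearts they went from 9 to 1795 without MIRI 2 (11.8%) and to 2628 without GXNI 1 (17.5%). Of the 10 genes, 8 met that threshold in MIRI without MIRI 2 (the 6 above, with Gclc higher and Sod2 lower at under 1.5-fold), 6 in GXNI without GXNI 1, and 6 and 5 in the injured hearts without MIRI 2 and without GXNI 1. Nfe2l2 then stood at an edgeR adjusted p of 0.00138 in MIRI and 0.0203 in GXNI. Without MIRI 2 and GXNI 3 together, 6 rose in MIRI (16.9% of all genes did), 1 in GXNI (Nfe2l2, against 2.11%) and 5 in all injured hearts (Nfe2l2, Hmox1, Txnrd1, Srxn1 and Mt2, against 6.60%). Leaving out each injured or sham heart in turn, Nfe2l2 was called every time in GXNI against sham and in the contrast of all injured hearts, and Srxn1 was lost from the latter without any 1 of the sham hearts. Txnrd1 stayed called in the injured hearts only without MIRI 2 or without GXNI 1. In MIRI against sham Nfe2l2 lost its call without sham 2 or sham 3. By library, GXNI 3 was the highest of 9 for 7 of the 10 genes and sham 2 the lowest for 6. MIRI 1, MIRI 3 and GXNI 3 each exceeded all sham hearts for 8 genes, GXNI 2 for 6, MIRI 2 for 5 and GXNI 1 for 3. The share of all genes with these orders was not counted, and GXNI 3 lay furthest from sham on the first component. These counts are therefore not read as a trait of the 10 genes.

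Around these genes, 89 others from 4 lists were read in the same fits, of which 86 were tested in the injured hearts against sham. There 8 rose and 3 fell, against 5.52% and 2.85% of all genes. In MIRI against sham 9 rose and 3 fell of 84 tested, against 6.15% and 2.82% of all genes. In GXNI against sham 2 rose and 1 fell of 85, against 2.67% and 1.54%. In GXNI against MIRI none of 86 was called (0.0203% of all genes were). Counts by list below are for the injured hearts against sham, where 5.52% of all genes rose and 2.85% fell.

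Of the 16 genes that regulate NRF2, 2 rose in the injured hearts and none fell, both of them small MAF partners, and the median log2 fold change was 0.17. Mafk measured 65.9, 50.6 and 54.1 CPM in sham, 150.4, 78.1 and 159.7 CPM in MIRI 1 to 3, and 83.7, 102.1 and 217.9 CPM in GXNI 1 to 3. All injured hearts lay above sham, as was true of 8.4% of all genes tested, and the log2 fold change was 1.21 (SE 0.33, edgeR adjusted p = 0.0875). Maff rose by 1.87 (SE 0.55, edgeR adjusted p = 0.0910), with MIRI 2 (21.7 CPM) below the highest sham heart (22.8 CPM). The value for Keap1, the sensor, was -0.09 (SE 0.12), and that for the repressor Bach1 was -0.07 (SE 0.21), which turned to 0.02 without MIRI 2. Fbxw11, a ligase subunit that recognizes phosphorylated NRF2, was at 0.45 (SE 0.16), and Gsk3b, the kinase that marks it, at 0.36 (SE 0.14), neither called.

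Of the 28 tested of 29 other NRF2 target genes, 3 rose and 2 fell, with a median log2 fold change of 0.09. Gpx2, the member not tested, had no count in any library. Slc7a11, the cystine carrier that feeds glutathione synthesis, had 3, 2 and 5 counts in sham, 397, 6 and 565 in MIRI 1 to 3, and 5, 181 and 332 in GXNI 1 to 3. MIRI 2 and GXNI 1 stayed at the sham level and the 4 other hearts held nearly all reads. With 1486 counts against 10 the rate was 75.0-fold higher (95% exact interval 40.6 to 156.6, counting error only), and edgeR gave an adjusted p of 0.0875. Akr1b8, an aldose reductase relative, rose by 1.27 (SE 0.26, edgeR adjusted p = 0.0781), at 5.40 to 11 CPM in the injured hearts and 2.88 to 3.38 CPM in sham. G6pdx, which makes NADPH in the pentose phosphate pathway and is named because it completes the 3, rose by 0.88 (SE 0.26, edgeR adjusted p = 0.0937). Idh1, a cytosolic source of NADPH, fell by 0.98 on the log2 scale (SE 0.24, edgeR adjusted p = 0.0852), with 21.5 to 48.7 CPM in the injured hearts and 60.6 to 73.3 CPM in sham. Ephx1, microsomal epoxide hydrolase, fell by 1.05 on the log2 scale (SE 0.26, edgeR adjusted p = 0.0852).

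**Figure D5:**
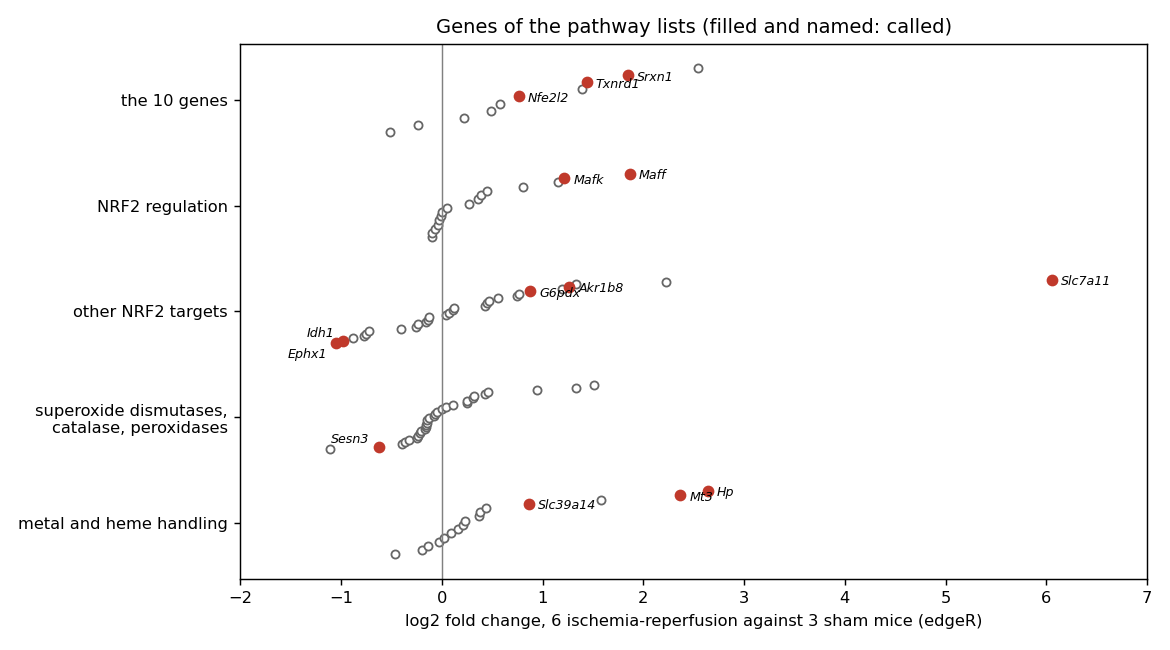
Each point is the log2 fold change of 1 gene in the 6 injured hearts against the 3 sham hearts, by list, with called genes filled and named. Most genes of the 4 lists lie near 0, and Slc7a11 stands far to the right at 6.05, a fitted value that rests on 10 counts in sham.

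Of the 30 superoxide dismutases, catalase, peroxidases and their reductants, none rose and 1 fell, with a median log2 fold change of -0.10. Sesn3, a sestrin, fell by 0.62 on the log2 scale (SE 0.17, edgeR adjusted p = 0.0875). Gsr, glutathione reductase, measured 26.1, 23.6 and 25.9 CPM in sham, 74.4, 28.4 and 99.7 CPM in MIRI 1 to 3, and 28.8, 58.7 and 91.1 CPM in GXNI 1 to 3. All 6 injured hearts were above sham, as was true of 8.4% of all genes tested. The log2 fold change of 1.33 (SE 0.42, edgeR adjusted p = 0.10) lay just outside the threshold on p. Sesn1 at -1.11 (SE 0.38) and Glrx3 at -0.36 (SE 0.11) were not called, the first by its p and the second by its fold.

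Of the 18 genes of metal and heme handling, 16 were tested, 3 rose and none fell, with a median log2 fold change of 0.22. Hp, the haptoglobin gene whose product binds free hemoglobin, rose by 2.64 (SE 0.72, edgeR adjusted p = 0.0875), from 1.98 to 6.87 CPM in sham to 4.89 to 53.4 CPM in the injured hearts, and it lost its call without MIRI 2 and GXNI 3, at 2.55. Slc39a14, a zinc and iron importer, rose by 0.86 (SE 0.25, edgeR adjusted p = 0.0896). Mt3, another metallothionein, was near the floor with 9 counts in sham and 100 in the injured hearts, a rate ratio of 5.6 (95% exact interval 2.84 to 12.6, counting error only, edgeR adjusted p = 0.0875). Mtf1, the factor that reads the metal response elements shown above, was at 0.21 (SE 0.13), and the copper ferroxidase Cp at -0.46 (SE 0.17), neither called.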

How the data were processed

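RNA was sequenced from hearts of 3 sham, 3 MIRI and 3 GXNI mice. The authors aligned cleaned reads with HISAT2 and counted them with featureCounts, and per the labels the build is mm10. Versions and the strand setting are not given in the sources used here. The deposited values are raw counts per gene. Of 54532 identifiers, 54409 were paired with a GENCODE M21 symbol (GRCm38) and 123 were not. No column of another sample (0) entered.

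A separate fit was made for each comparison, on its own libraries, with edgeR 4.0.16 in R 4.3.3 (TMM normalization, default filter, quasi-likelihood F test, no covariates). The standard error is the log2 fold change divided by the square root of F. Groups follow the labels. The fits were tested on data simulated with the same dispersion for every gene, which does not copy the uneven injured libraries. No pair of libraries within a group agreed within sampling noise (smallest chi-square per degree of freedom 13.2, sham 2 and sham 3). Pairs across groups were not compared in this way. P-values measure the spread between mice.

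The 10 genes, the 4 pathway lists and the marker lists were chosen with earlier results of these data known. The genes named from each list are the 4 with the smallest p in the injured hearts against sham, with Keap1, Bach1, Mtf1 and Slc7a11. Promoters are RefSeq windows of GRCm38.p6. Alternatives were DESeq2 1.42.0, RLE normalization, no filter, a joint fit of the 9 libraries, a block for the replicate number, an adjusted p of at most 0.05, each replicate left out in turn, and MIRI 2 and GXNI 3 left out.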

Additional observations from a re-analysis of the deposited data

How the results depend on the processing

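With all libraries in, the filter kept and an edgeR adjusted p of at most 0.05 in place of the unadjusted one, none of the 10 genes was called in any comparison. Of all genes, 2, 0, 0 and 9 were called in the comparisons of MIRI with sham, GXNI with sham, GXNI with MIRI and all injured hearts with sham. DESeq2 called 2251, 1401, 11 and 2196 genes. Of the 10 genes, 4 rose in MIRI against sham (5.34% of all genes tested did), 5 in GXNI against sham (3.55%) and 5 in all injured hearts against sham (5.18%). In the same 3 comparisons 4, 4 and 5 of the 10 genes had a DESeq2 adjusted p of at most 0.05, at any fold. Of all genes tested, 7.26%, 2.98% and 7.4% did. Without the filter 2406, 1425 and 10 genes were called in the first 3 comparisons. Of the 10 genes, 5 rose in MIRI, in GXNI and in all injured hearts against sham. The share of all genes tested that rose was 5.75%, 3.57% and 4.18%. Without the filter, 4, 0 and 1 of the 10 genes had an edgeR adjusted p of at most 0.05, at any fold. Of all genes tested, 4.03%, 0.0644% and 0.341% did. One fit of all 9 libraries called 800 genes for MIRI with sham and 9 for GXNI with MIRI. In it 1 of the 10 genes rose in each of MIRI and GXNI against sham, where 3.52% and 1.97% of all genes did. RLE normalization left 1 of the 10 in GXNI against sham, where 2.66% of all genes rose.

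Without MIRI 2 and GXNI 3, 4592 genes were called for MIRI with sham and 748 for GXNI with MIRI. Of the 10 genes, 6, 1 and 5 rose in MIRI, GXNI and all injured hearts against sham. The share of all genes tested that rose was 16.9%, 2.11% and 6.60%. The log2 fold changes of GXNI against MIRI turned to -0.14 (Nfe2l2), -1.78 (Hmox1), -0.10 (Gclm), -0.82 (Txnrd1), -0.85 (Srxn1), 0.38 (Sod2) and -0.79 (Mt2), and that of Gclc in GXNI against sham to -0.10. The Gclc to Gclm difference in the injured hearts was -0.38, no longer under 0.05 before adjustment, and the Mt2 to Mt1 difference of GXNI and MIRI turned to -0.54. In GXNI against MIRI, Gclc turned to 0.0030 without the filter.

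Replicate numbers do not pair the mice, which are different animals, and deviations of same-numbered libraries correlated from -0.46 to 0.73. With the replicate number as a block, 1 of the 10 genes rose in GXNI against sham (2.33% of all genes tested did). In all injured hearts 4 rose (5.92% of all genes did). In GXNI against MIRI this block turned Gclc to 0.010, Txnrd1 to -0.037, Srxn1 to -0.10 and Sod2 to 0.0069. Not every library correlated best with its own number.

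Leaving out 1 replicate at a time, 514 to 4592, 175 to 2665, 1 to 12 and 463 to 2298 genes were called in the 4 comparisons. Of the 10 genes 0 to 6, 1 to 6, 0 and 1 to 6 were called. Against sham, 2.25% to 16.9% of all genes tested rose in MIRI and 0.551% to 10.7% in GXNI. In all injured hearts 1.63% to 9.67% did. Without sham 2, none of the 10 was called in MIRI against sham, where 2.25% of all genes rose and 1.15% fell. The Gclc to Gclm difference ranged from -0.48 to -0.31 in the injured hearts and from -0.30 to 0.0059 between GXNI and MIRI, and that of Mt2 to Mt1 from 0.59 to 0.91 and from -0.28 to 0.51. In GXNI against MIRI the log2 fold changes ranged from -0.044 to 0.17 (Nfe2l2), -1.26 to 1.14 (Hmox1), -0.13 to 0.37 (Nqo1), -0.32 to 0.22 (Gclc), -0.52 to 0.47 (Txnrd1), -0.51 to 0.47 (Srxn1), -0.16 to 0.27 (Sod2), -0.13 to 0.054 (Mt1) and -0.42 to 0.51 (Mt2). Gclc ranged from -0.0094 to 0.48 in MIRI and from -0.10 to 0.42 in GXNI against sham, and Bach1 from -0.19 to 0.023 in the injured hearts. The cause of these changes was not tested.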
